A study of Homo sapiens with 50 samples.

Results

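Genes of 200 kb or longer were taken from the authors' list of genes with a promoter-proximal pause site in DLD-1, an established line from a human colorectal cancer. A gene was included when its listed interval measured at least 200 kb, and 426 of the 6481 listed genes did so (6.57%). These 426 genes held 33.3% of the summed length of all listed intervals. Their median length was 281545.5 bp, against 32301 bp for the 6055 shorter genes. Of the 426, 186 measured at least 300 kb, 48 at least 500 kb and 5 at least 1 Mb. The longest of the shorter genes measured 198127 bp and the shortest long gene 200881 bp.

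The study asked about SPT6, which chaperones histones during elongation, and its part in pause release and in bringing in the PAF1 complex. Its 50 libraries of chromatin immunoprecipitation sequencing came from SPT6, PAF1, SPT6/PAF1 and SPT6/NELF-C degron lines and a parental line, with RPB1, SPT6, NELF-C or PAF1 complex subunits as targets and 1 input library. The lines carry OsTIR1, which directs degradation of degron-tagged proteins once auxin is present. Auxin was given at 500 µM for 2 or 6 h. The other libraries were taken at 0 h of auxin or after vehicle for 2 h. The values below are positions in the authors' whole-series lists, with 1 interval and 1 pause site per gene and no value per library, so no replicate error exists and no comparison of lines or treatments was made. Intervals given here are 95% intervals (order statistics for medians, Wilson for shares) and cover variation between genes alone. The lists hold no expression level, so the cell line's identity was not checked by levels.

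RNA polymerase II halts shortly after the start of most human genes and is released into elongation by a kinase, P-TEFb, with elongation factors such as SPT6 and the PAF1 complex travelling along. In a very long gene, a released polymerase must then transcribe for hours before it reaches the end. Long human genes are rich in neuronal adhesion genes and common fragile sites, regions that tend to break under replication stress, often lie in them.

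The sequences of 11 of the long genes show where the authors placed the start and the pause site. They were read from RefSeq promoter windows (GRCh38.p14) that contain both positions, and they run 5′ to 3′ on the gene's strand. In each start window of 42 bases, the capitals mark the last base before the listed 5′ end and the base at that end. In each pause window of 24 bases, the capitals mark the listed pause site and the base after it. CAMTA1 is the longest gene whose windows could be read, and FGD4, EPHB2 and WWC2 have the smallest, the middle and the largest pause distance among such genes.
CAMTA1 start (chr1:6785414-6785455, plus strand): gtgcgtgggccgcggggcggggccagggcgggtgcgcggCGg
CAMTA1 pause (chr1:6785475-6785498, plus strand): gcggcggcggcggtacgagGCgcg
FGD4 start (chr12:32399527-32399568, plus strand): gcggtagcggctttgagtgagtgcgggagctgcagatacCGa
FGD4 pause (chr12:32399548-32399571, plus strand): tgcgggagctgcagataccGAgac
EPHB2 start (chr1:22710799-22710840, plus strand): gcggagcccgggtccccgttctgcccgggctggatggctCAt
EPHB2 pause (chr1:22710855-22710878, plus strand): ggtggcggcggctgtgtgtGCgcc
WWC2 start (chr4:183099111-183099152, plus strand): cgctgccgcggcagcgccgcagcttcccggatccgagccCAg
WWC2 pause (chr4:183099264-183099287, plus strand): ctcgccggctccgacgcagACatg

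Pause distance is the number of bases from the listed 5′ end to the listed pause site along the gene's strand. It was 40 bp in CAMTA1, a calmodulin-binding transcription activator, and 35 bp in EPHB2, an ephrin receptor. In FGD4, an exchange factor for the GTPase Cdc42, both positions were the same base and the distance was 0. That base lay 9 bp downstream of the RefSeq start. The distance of 132 bp in WWC2, a Hippo pathway scaffold, was counted from a listed 5′ end 106 bp upstream of the RefSeq start. The base before a listed start was C in each of these 4 genes.

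Further windows come from 6 families with at least 3 long genes, with a pair of relatives, DOCK8 and DOCK10, and single members of the others.
DOCK8 start (chr9:214828-214869, plus strand): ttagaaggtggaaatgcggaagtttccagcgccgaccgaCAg
DOCK8 pause (chr9:214881-214904, plus strand): gcttggctgggcatgttccGCggc
DOCK10 start (chr2:225042654-225042695, minus strand): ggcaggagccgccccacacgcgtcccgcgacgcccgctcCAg
DOCK10 pause (chr2:225042567-225042590, minus strand): tttggaaagtcttcgagaaGCttc
TBC1D1 start (chr4:37891047-37891088, plus strand): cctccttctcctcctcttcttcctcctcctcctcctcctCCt
TBC1D1 pause (chr4:37891103-37891126, plus strand): cctggtgccgccaccgtccGCcgg
MYO1E start (chr15:59372870-59372911, minus strand): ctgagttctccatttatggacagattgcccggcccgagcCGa
MYO1E pause (chr15:59372828-59372851, minus strand): cggattaagtggccgaagaAAgag
PTPN4 start (chr2:119759882-119759923, plus strand): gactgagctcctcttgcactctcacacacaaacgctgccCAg
PTPN4 pause (chr2:119759933-119759956, plus strand): ccagctcacgccgcgcagtGCgct
GALNT2 start (chr1:230067198-230067239, plus strand): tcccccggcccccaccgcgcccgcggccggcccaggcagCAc
GALNT2 pause (chr1:230067264-230067287, plus strand): gcggccgagttgggagaatGCggc
ZNF407 start (chr18:74597830-74597871, plus strand): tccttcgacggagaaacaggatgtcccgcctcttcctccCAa
ZNF407 pause (chr18:74597882-74597905, plus strand): gtgagccggaggagtcagtCAgag

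DOCK8 and DOCK10, guanine nucleotide exchange factors, paused 32 and 84 bp from their listed starts. In DOCK10 the listed start lay 187 bp upstream of the RefSeq start, and the pause site itself lay upstream of it. PTPN4, a tyrosine phosphatase, had a distance of 30 bp, and the Rab regulator TBC1D1 one of 35 bp. The unconventional myosin MYO1E had 39 bp, the O-glycosylation enzyme GALNT2 45 bp and the zinc finger gene ZNF407 31 bp. In 8 of all 11 pause windows the base after the site was C, and FGD4, MYO1E and ZNF407 had A there.

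Over all long genes with a readable start, the listed 5′ end followed the usual initiator pattern of a pyrimidine followed by a purine in 235 of 255 (92.2%, 88.2 to 94.9%). Among shorter genes the share was 86.4% (85.2 to 87.5%), and the intervals did not overlap. The pair CA alone stood at 149 of the 255 long starts (58.4%) and at 51.6% of shorter ones. The base after the pause site was C in 57 of 75 long genes (76.0%, 65.2 to 84.3%) and in 87.3% of 1326 shorter genes (85.4 to 88.9%). The listed site itself was G in 52.0% of long and 48.7% of shorter genes. The base after the site was C in 73.9% of the long genes on the plus strand and 79.3% of those on the minus strand. These pause windows favour near sites, since a window ends 50 bases after the RefSeq start, and the median distance in them was 37 bp in both sets. The sources used here do not state which base of the paused polymerase the coordinate stands for.

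The medians of long and shorter genes differed by 1 bp, and their intervals overlapped. The median pause distance was 51 bp in the 426 long genes (48 to 55 bp) and 52 bp in the 6055 shorter ones (51 to 53 bp). The quartiles were 38 and 87.8 bp in long genes and 38 and 83 bp in shorter genes, and the distances ran from 0 to 291 bp and from 0 to just under 300 bp. Across the 426 long genes, the log of length and the pause distance had a Pearson r of -0.02 and a Spearman rank correlation of 0.0065. These correlations are across genes, which are not independent replicates.

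The distribution had the same peak with small shifts on either side. Between 20 and 60 bp lay 248 long genes (58.2%, 53.5 to 62.8%), against 53.0% of shorter genes (51.8 to 54.3%). From 61 to 100 bp the shares were 15.96% (12.8 to 19.7%) and 21.2% (20.2 to 22.3%), and these intervals did not overlap. Sites closer than 20 bp were found in 19 long genes (4.46%, 2.87 to 6.86%) and 7.27% of shorter genes (6.64 to 7.95%). Beyond 100 and below 200 bp the shares were 13.6 and 13.3%. Sites at 200 bp or beyond were found in 33 long genes (7.75%, 5.57 to 10.7%) and 5.15% of shorter genes (4.62 to 5.74%), with overlapping intervals.

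**Figure D1:**
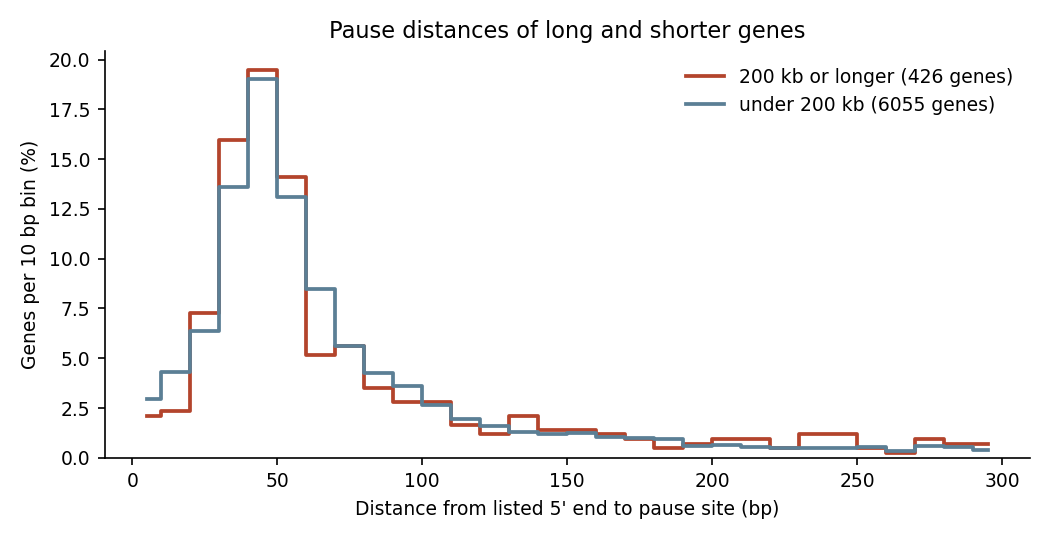
Share of genes (y, %) by distance from the listed 5′ end to the pause site (x, bp, bins of 10 bp) for 426 genes of 200 kb or longer and 6055 shorter genes. Both lines peak in the bin that starts at 40 bp, at 19.48% and 19.03%, and the line of the long genes is lower in the bin that starts at 60 bp (5.16 against 8.47%).

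Within the long genes the distance did not follow length in a steady way. Genes of 200 to 300 kb had a median of 49.5 bp (46 to 54 bp, n = 240), genes of 300 to 500 kb one of 59 bp (51 to 73 bp, n = 138), and genes of 500 kb or more one of 45.5 bp (41 to 53 bp, n = 48). The middle range thus stood highest, and its interval overlapped both others. Among the 48 genes of 500 kb or more, 35 had a site at 20 to 60 bp (72.9%, 59.0 to 83.4%), and this interval lay above that of shorter genes. In the range of 300 to 500 kb, 70 of 138 did so (50.7%), and 16 of the 138 had a site at 200 bp or beyond (11.6%, 7.26 to 18%).

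**Figure D2:**
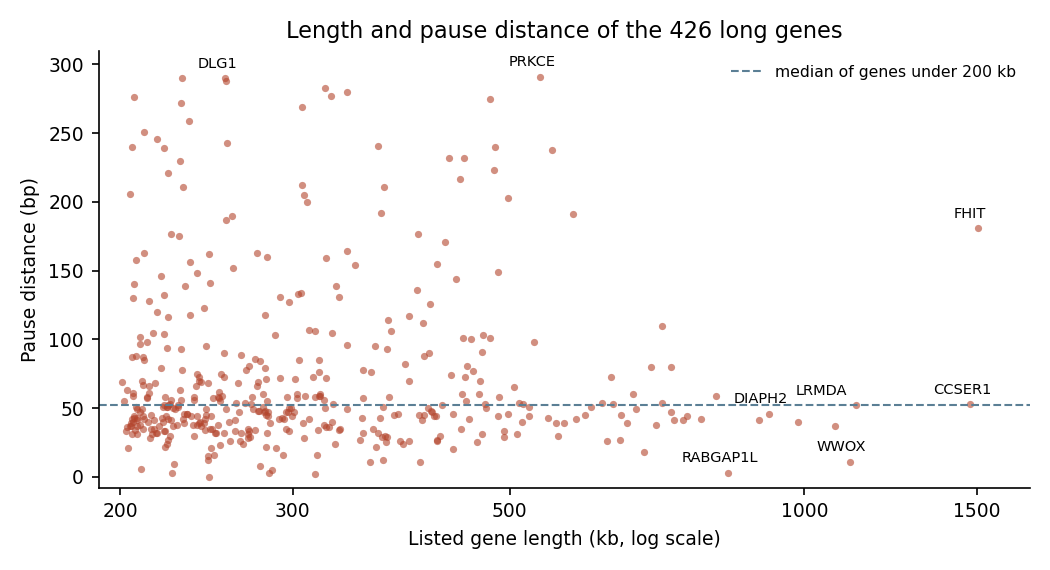
Pause distance (y, bp) against listed length (x, kb, log scale) of the 426 long genes, 1 point per gene, with selected genes named and the median of shorter genes (52 bp) dashed. Most points lie between 20 and 60 bp, and FHIT at 181 bp stands above the other genes of 1 Mb or more.

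The 10 longest listed genes included several at common fragile sites. FHIT, a dinucleotide hydrolase, was the longest at 1504176 bp and had a pause distance of 181 bp. CCSER1, a serine-rich coiled-coil protein, measured 1477902 bp with a distance of 53 bp. LRMDA, a melanocyte differentiation gene, measured 1128459 bp with a distance of 52 bp. The first of these stood far outside the quartiles of all long genes and the other two lay near the median. WWOX, an oxidoreductase with WW domains, measured 1112941 bp and had its site at 11 bp. PARD3B, a cell polarity protein, measured 1074984 bp with a distance of 37 bp. CAMTA1 followed at 984253 bp, with its site at 40 bp as shown above. DIAPH2, a formin that builds actin filaments, measured 920141 bp and had a distance of 46 bp. IMMP2L, a peptidase of the mitochondrial inner membrane, measured 899834 bp with a distance of 41 bp. RABGAP1L, a Rab GTPase regulator, measured 835728 bp and paused at 3 bp, among the smallest distances of all long genes. EXOC4, an exocyst subunit, measured 812679 bp with a distance of 59 bp.

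Next to the limit of 200 kb, the genes just inside were SCAI (200881 bp), SLC25A13 (201814 bp), RTTN (202666 bp), XXYLT1 (202876 bp) and BTRC (203149 bp). Their pause distances were 69, 55, 33, 63 and 36 bp. Just outside were TAF3 (198127 bp), ATF6 (197747 bp), AMBRA1 (197609 bp), FAM168A (197593 bp) and SKAP2 (197522 bp). Theirs were 47, 46, 56, 3 and 37 bp, so the ranges on the 2 sides of the limit overlapped.

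The smallest and largest pause distances were spread over genes of unlike function. After FGD4 at 0 came GNAQ, the alpha subunit of a heterotrimeric G protein, at 2 bp. EFCAB6, an EF-hand protein, RABGAP1L and TIAM1, an exchange factor for the GTPase Rac, each had 3 bp. The largest distance, 291 bp, belonged to PRKCE, a protein kinase C. AFG1L, a mitochondrial ATPase, and DLG1, a polarity scaffold, followed at 290 bp each. CHCHD6, a subunit of the mitochondrial cristae complex MICOS, had 288 bp and ANKRD44, an ankyrin repeat protein, 283 bp. The distance also carries any shift of the listed start, which lay 125 bp upstream of the nearest RefSeq start in PRKCE, 97 bp upstream in AFG1L, 11 bp upstream in DLG1 and 5 bp downstream in CHCHD6. Of the smallest, FGD4 began 9 bp, RABGAP1L 61 bp and TIAM1 214839 bp downstream of the nearest start in the reference tables, which are not complete.

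How many of the human long genes are in the list was asked against RefSeq protein-coding genes, and in these counts listed means that a gene received its symbol by its 3′ end. A second rule, by mutual overlap, named other entries among the 426, and with either rule 32.2% of long and 30.2% of shorter RefSeq genes were listed. Of 1399 such genes of 200 kb or more, 420 were listed (30.0%, 27.7 to 32.5%), beside 5402 of 18638 shorter ones (29.0%). The listed interval of 36 of the 420 was shorter than 200 kb, so they are outside the 426. Within the long genes the share fell with length. It was 38.02% at 200 to 300 kb (34.3 to 41.9%, n = 626) and 29.5% at 300 to 500 kb (25.5 to 33.8%, n = 458). From 500 kb to 1 Mb it was 16.3% (12.2 to 21.4%, n = 246), and at 1 Mb or more 7 of 69 genes were listed (10.1%, 5.002 to 19.5%). Below the limit, 40.4% of genes of 80 to 200 kb and 19.2% of genes under 20 kb were listed.

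**Figure D3:**
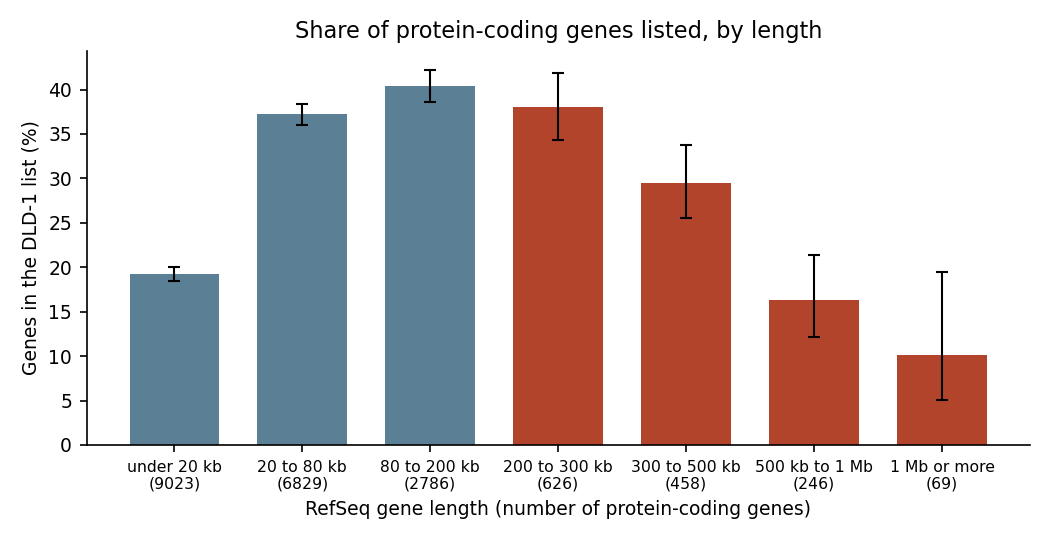
Share of RefSeq protein-coding genes found in the DLD-1 list (y, %) by RefSeq gene length (x, number of genes in brackets); bars are shares, error bars 95% Wilson intervals, blue under 200 kb and red at 200 kb or more. The share is highest at 80 to 200 kb (40.4%) and lowest at 1 Mb or more (10.1%).

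A close neighbour went with a lower share. Among long genes without another protein-coding gene overlapping or within 1000 bp, 33.0% were listed (30.2 to 36.0%), against 22.6% of those with such a neighbour (18.8 to 26.9%). For genes from the shortest listed length to 200 kb the shares were 42.9 and 16.4%. Among genes without a close neighbour, then, the long ones were listed at a lower share than the shorter ones. Among genes with one the order was opposite, at 22.6% of long and 16.4% of shorter genes.

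None of the 10 longest RefSeq protein-coding genes was listed. These are RBFOX1, CNTNAP2, PTPRD, DMD, DLG2, CSMD1, MACROD2, EYS, LRP1B and CTNNA3, which encode splicing, synaptic, muscle, retinal and adhesion proteins for the most part. Of the 30 longest, 3 were listed by either rule: FHIT, CCSER1 and TENM3, a teneurin adhesion protein. Of the 100 longest, 10 were listed by either rule.

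The families of the listed long genes were described with 16 gene lists, in which the share listed is read beside the 30.0% of all long RefSeq genes. The lists and their members were chosen with earlier results of these data known. The order of the lists is therefore a description and not a test. Since that share falls with length, the share of all long genes of like length, weighted by the list's own lengths, is given for the 2 lists made up mostly of genes of 500 kb or more. For the other lists it lay between 24.95 and 32.7%. Distances are given for the members listed at 200 kb or more and named by their 3′ end. The neuronal synapse and adhesion list had 1 of 67 long genes listed (1.49%, 0.264 to 7.98%). Of these 67, 50 measured at least 500 kb, and genes of like length were listed at 17.8%. That gene was GRIN2B, a glutamate receptor subunit, with a pause distance of 217 bp. The neuronal list leaves out some relatives of its members that were listed. TENM3 was listed and is left out, whereas TENM2 and TENM4 are on it. The same holds for CADM1 beside CADM2 and for UNC13B beside UNC13C. The low share thus describes the members chosen and not neuronal adhesion genes as a class. The immune and stromal list also holds muscle genes, among them DMD, TTN, RYR2 and SGCD, none of which was listed. Of its long genes, 3 of 26 were listed (11.5%, 4.003 to 29.0%). These were DOCK8, DOCK10 and MECOM, a zinc finger transcription factor that paused at 191 bp. Of the phosphodiesterases and phosphoinositide enzymes, 3 of 25 were listed (12%, 4.17 to 29.96%). With either naming rule 5 were listed (20%, 8.86 to 39.1%), and that interval included the 32.2% of all long genes listed with either rule. PDE11A, the longest of them at 449525 bp, paused at 73 bp, INPP5A at 68 bp and PLCB4, a phospholipase C, at 50 bp.

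Signalling and chromatin lists stood at the other end. In this group of lists, members under 200 kb were also listed often, beside 29.0% of all shorter RefSeq genes. The counts were 36 of 51 (Wnt, TGF-beta and Hippo), 61 of 86 (chromatin), 39 of 49 (ubiquitin) and 16 of 24 (cell junction). They were 39 of 59 for vesicle traffic and 36 of 53 for kinases. A high share was thus not particular to long members. Of the lists above, phosphodiesterases had 12 of 18 shorter members listed and the immune list 0 of 7. Nor was it particular to this group of lists. Shorter members were listed in 24 of 35 cases for solute carriers, 41 of 60 for metabolic enzymes and 36 of 64 for transcription factors. The counts were 13 of 24 for the cytoskeletal list, 26 of 51 for RNA-binding proteins and 25 of 61 for DNA repair. Of the Wnt, TGF-beta and Hippo list, 10 of 14 long genes were listed (71.4%, 45.4 to 88.3%). Its longest was MAGI1, a junction scaffold of 686283 bp whose listed start and pause site both lay upstream of the nearest RefSeq start. MAGI1 also had the smallest distance from the listed start at 18 bp. TNIK, a kinase that acts on the Wnt effector TCF7L2, had the largest at 136 bp. Between them stood TCF7L2 itself (32 bp), the Hippo effector TEAD1 (35 bp), GSK3B (49 bp), a kinase that marks beta-catenin for degradation, and ROR1 (112 bp), a Wnt receptor. The 4 long genes of the list that were not listed were BMPR1B, MACF1, ROR2 and STK3.

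Of the chromatin regulators and coregulators, 25 of 40 were listed (62.5%, 47.0 to 75.8%), with a median pause distance of 56 bp in the 24 listed at 200 kb or more. The longest was SMYD3, a lysine methyltransferase of 757926 bp that paused at 44 bp. ATXN1, a transcriptional corepressor, had the smallest distance at 25 bp, and MAML2, a Notch coactivator, the largest at 241 bp. The histone deacetylase HDAC4 (43 bp), the acetyltransferase KAT6B (40 bp) and the remodeller CHD6 (41 bp) lay close together. ARID1B, a subunit of the BAF remodelling complex, lay at 232 bp.

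Of the ubiquitin ligases and deubiquitinases, 12 of 22 were listed (54.5%, 34.7 to 73.1%), and all 12 had a site at 22 to 66 bp. Their median was 42.5 bp (33 to 51 bp). FBXL17, an F-box protein and the longest of them at 523064 bp, paused at 51 bp. HECTD4, a HECT domain protein, had the smallest distance at 22 bp and ZSWIM6, a zinc finger protein, the largest at 66 bp. FBXW7, the F-box protein that targets cyclin E and MYC, had 31 bp, BTRC, which targets beta-catenin, 36 bp, and USP34, a deubiquitinase, 44 bp.

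Of the cell junction and polarity genes, 15 of 28 were listed (53.6%, 35.8 to 70.5%), with a median of 39.5 bp in 14 of them (27 to 212 bp). PARD3B was the longest, MAGI1 had the smallest distance and DLG1 the largest. PARD3, the partner of atypical protein kinase C in epithelial polarity, and PLEKHA7, an adherens junction protein, each paused at 38 bp, and PATJ, of the Crumbs complex, at 26 bp. Beyond 200 bp were TNS3 (212 bp), a focal adhesion protein, and PTPRK (238 bp), a receptor phosphatase. Not listed were TJP1, CTNNA3 and CDH13 among others.

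Of the vesicle traffic and membrane turnover genes, 21 of 40 were listed (52.5%, 37.5 to 67.1%), with a median of 47 bp (42 to 73 bp). Their distances ran from 3 bp in RABGAP1L, the longest among those named by their 3′ end, to 127 bp in WDFY3, a selective autophagy scaffold. None of them reached 200 bp. LRBA (750816 bp, 41 bp) and NBEA (730446 bp, 47 bp), both of the BEACH domain family, were alike in length and distance.

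Of the protein kinases, 19 of 38 were listed (50%, 34.9 to 65.2%), and their distances were spread widely, with a median of 75 bp (39 to 136 bp). ULK4, the longest at 715487 bp, paused at 110 bp. STK39, a kinase that controls ion cotransport, had 16 bp and PRKCE 291 bp. The protein kinase C genes alone spanned most of that range, with PRKCA at 31 bp and PRKCH at 52 bp. CDK6, a cell cycle kinase, paused at 42 bp, IGF1R, the receptor of an insulin-like growth factor, at 106 bp and FER, a cytoplasmic tyrosine kinase, at 232 bp.

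Other lists lay nearer the background, with intervals that included 30.0% when genes were named by their 3′ end. Of the cytoskeletal crosslinkers and motors, 13 of 36 were listed (36.1%), from SPTBN1, a spectrin, at 35 bp to MYO5B, a motor of recycling vesicles, at 211 bp. DIAPH2 was the longest of them. Of the transcription factors, 18 of 52 were listed (34.6%), from ZNF704 at 15 bp to ZEB1, a repressor of epithelial genes, at 251 bp, and the longest was FOXP1, a forkhead factor of 628928 bp that paused at 26 bp. Of the mitochondrial and metabolic enzymes, 16 of 37 were listed (43.2%), or 17 with either rule (45.9%, 31.0 to 61.6%), from EXT1, a heparan sulphate polymerase, at 16 bp to OXR1, an oxidation resistance protein, at 223 bp, and IMMP2L was the longest. Of the RNA-binding and RNA-processing proteins, 10 of 28 were listed (35.7%), and 14 with either naming rule (50%, 32.6 to 67.4%). The lower limit of that interval lay just above the 32.2% of all long genes listed with either rule. Their distances ran from ZCCHC7 at 30 bp to SND1 at 144 bp, the latter the longest of those named by their 3′ end at 440400 bp. Of the solute carriers, pumps and channels, 13 of 38 were listed (34.2%), and the largest distance was 203 bp in ITPR2, a calcium release channel and the longest of them at 497842 bp.

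The genes at common fragile sites were listed in 8 of 37 cases by their 3′ end (21.6%, 11.4 to 37.2%) and in 9 with EXOC4, which was named by mutual overlap (24.3%, 13.4 to 40.1%). Of the 37, 35 measured at least 500 kb, and all long RefSeq genes of like length were listed at 13.7% by their 3′ end. Their distances ran from 11 bp in WWOX to 181 bp in FHIT, with a median of 43.5 bp (11 to 181 bp). Between these lay PTPRG, a receptor phosphatase, at 41 bp, NBEA at 47 bp and DOCK5 at 78 bp. Fragile site genes that were not listed included MACROD2, LRP1B, CNTNAP2 and DPYD. In the DNA repair and replication list, which also holds WWOX and FHIT, 6 of 13 were listed (46.2%), and POLA1 (60 bp) and PRIM2 (105 bp), subunits of DNA polymerase alpha-primase, paused nearer the start than FANCC (246 bp), of the Fanconi anaemia pathway.

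**Figure D4:**
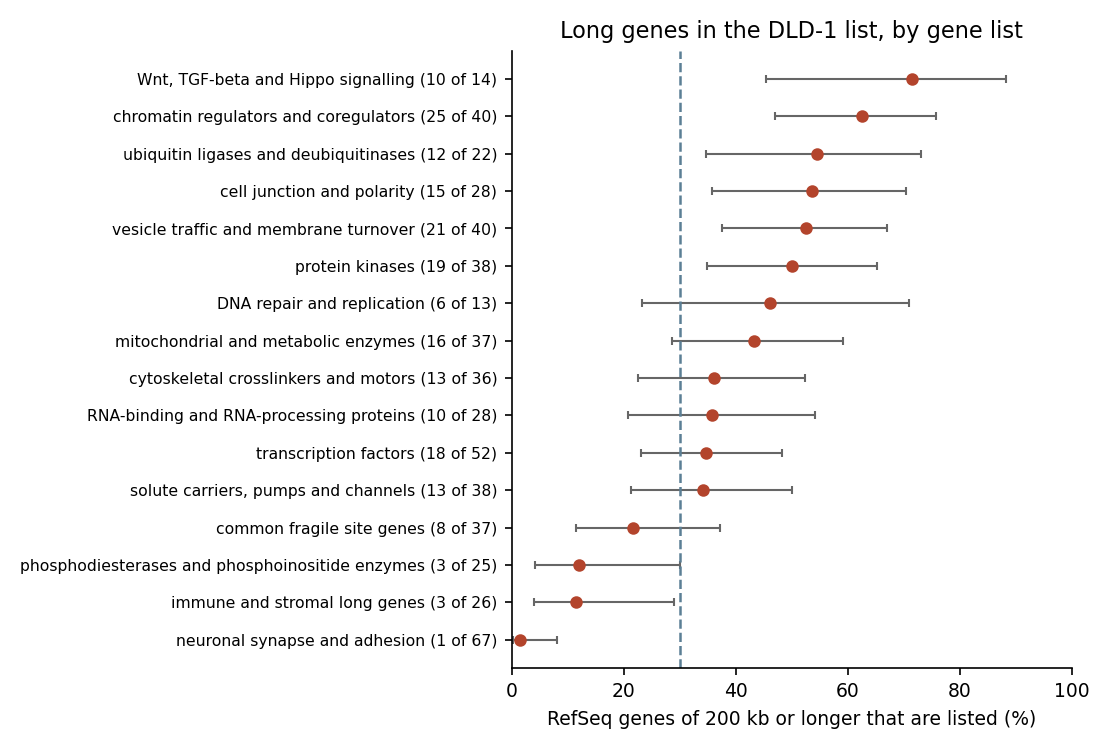
Share of RefSeq genes of 200 kb or longer named by their 3′ end in the DLD-1 list (x, %) in 16 gene lists (y, with listed and total numbers); points are shares, bars 95% Wilson intervals, and the dashed line is the 30.0% of all long genes. The neuronal list (1 of 67) lies lowest and the Wnt, TGF-beta and Hippo list (10 of 14) highest, and several lists share genes. The neuronal list leaves out some listed relatives of its members, such as TENM3. The lists were chosen with earlier results of these data known.

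Families with a shared symbol stem and at least 3 listed long genes were few. Their listed shares of long RefSeq members ran from 4 of 21 for SLC to 3 of 3 for PTPN, with 3 of 12 for ZNF and 4 of 10 for MYO. The VPS genes, which sort endosomal cargo and move lipids, had 5 of 6 long RefSeq members listed, with VPS13A at 42 bp, VPS13D at 45 bp, VPS13C at 49 bp, VPS53 at 61 bp and VPS8 at 73 bp. Of the DOCK exchange factors, DOCK8 lay at 32 bp, DOCK1 at 43 bp, DOCK5 at 78 bp and DOCK10 at 84 bp. All the genes named here from both families lay below 100 bp. The PTPN phosphatases were alike in keeping near their listed starts, with PTPN14 at 21 bp, PTPN4 at 30 bp and PTPN13 at 51 bp. The listed start of PTPN14 lay at -808 bp from the nearest RefSeq start (upstream), and its pause site was also upstream of that RefSeq start. The transporters SLC10A7, SLC25A13 and SLC39A11 paused at 54, 55 and 60 bp. The GALNT enzymes GALNT18, GALNT2 and GALNT10 lay at 27, 45 and 63 bp. The exocyst subunits EXOC2, EXOC6B and EXOC6 had 43, 45 and 87 bp, and the Rab regulators TBC1D1, TBC1D32 and TBC1D22A had 35, 73 and 90 bp. ZNF704, ZNF407 and ZNF609 had 15, 31 and 56 bp.

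Some families spread further. ARHGAP26 paused at 77 bp, whereas ARHGAP42 and ARHGAP10 paused at 269 and 280 bp. Of the myosins, MYO1E lay at 39 bp, MYO10 at 86 bp, MYO5A at 104 bp and MYO5B at 211 bp. The Rap exchange factors RAPGEF6 and RAPGEF5 had 42 and 66 bp, but RAPGEF2 had 243 bp. The MAP stem joins unlike genes: the kinases MAP2K5 and MAP3K5 lay at 47 and 156 bp, and the microtubule-binding proteins MAP7 and MAP2 at 51 and 200 bp.

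**Figure D5:**
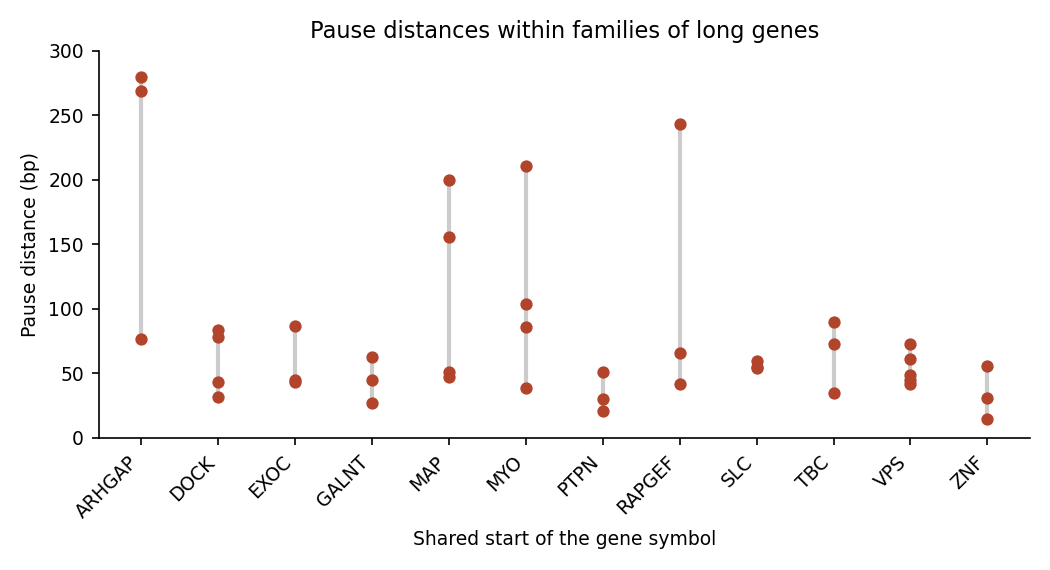
Pause distance (y, bp) of listed long genes in 12 groups that share the start of their symbol (x); each point is a gene and the grey line spans the group. The VPS, DOCK, PTPN and SLC genes plotted lie below 100 bp, whereas ARHGAP, MYO, RAPGEF and MAP groups reach 200 bp or more.

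Other families had no listed long gene. The collagens had 0 of 14 and the cadherins with the CDH stem 0 of 8. The calcium channel genes with the CACNA stem had 0 of 7 and the ADAMTS proteases 0 of 6. The upper limits were 21.5% for the collagens, 32.4% for the cadherins, 35.4% for CACNA and 39.0% for ADAMTS, so all but that of the collagens included 30.0%. Of the phosphodiesterases with the PDE stem, 1 of 11 was listed by its 3′ end, PDE11A at 73 bp, and PDE3B (38 bp) was named by mutual overlap.

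The long genes were spread over nearly all chromosomes. Chromosomes 1 and 2 held 40 each, chromosome 3 held 33, chromosome 6 held 32 and chromosome 4 held 30. Among the numbered chromosomes their share of the listed genes was highest on chromosome 4 (11.1% of 270), with 10.6% on chromosomes 9 and 18. The lowest shares above 0 were on chromosomes 21 (2.86%), 17 (3.14%), 16 (3.20%), 22 (3.31%) and 20 (3.37%). Chromosome 19 had 377 listed genes and none of 200 kb or more, and RefSeq has 5 protein-coding genes of that length there.

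The number of long genes that RefSeq has on a chromosome also differs. The listed share of these ran from 41.9% on chromosome 9 (26 of 62, 30.5 to 54.3%) to 12.5% on chromosome 21 (2 of 16, 3.50 to 36.0%) among the numbered chromosomes other than 19. Chromosomes 1, 2, 3 and 4 had 34.2, 32.8, 31.0 and 31.4%, close to the 30.0% of the whole. Most of these intervals are wide, and no difference was tested. The X chromosome had 11 of 56 (19.6%, 11.3 to 31.8%), and chromosome 7 had 20 of 93 (21.5%). Median pause distances by chromosome ran from 44 bp on chromosomes 9 and 14 to 82.5 bp on chromosome 18 (n = 12) among chromosomes with at least 10 long genes.

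Some listed starts lay far inside the gene. Against the outermost RefSeq start, 32 of 384 named long genes began over 10 kb downstream (8.33%, 5.97 to 11.5%), and 5.46% of shorter genes did (4.89 to 6.10%), with overlapping intervals. Over 100 kb downstream were 11 long genes (2.86%, 1.61 to 5.06%) and 0.644% of shorter genes (0.463 to 0.894%), and these intervals did not overlap. Such a start needs a RefSeq gene of over 100 kb, and the shorter listed intervals had a median of 32301 bp. The shares were not matched for length, so their difference may follow from the length limit itself. ZFHX3, a homeodomain zinc finger factor, began 843241 bp inside its outermost annotated extent and TENM3 795814 bp inside. NAV2, a microtubule-binding navigator protein, began 367601 bp inside, exactly on an annotated internal start. Its pause site lay 45 bp beyond that start.

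Against the nearest annotated start, most long genes began close by. Of 349 long genes with a start in the reference tables, 259 began within 50 bp of it (74.2%, 69.4 to 78.5%), and 80% of shorter genes did (78.8 to 81.1%). Within 300 bp the shares were 88.3% (84.5 to 91.2%) and 93.6% (92.8 to 94.2%). Medians of pause distance had overlapping intervals across these classes. The median was 56 bp in the 104 long genes that began on the annotated base (49 to 68 bp), 51 bp at 1 to 50 bp from it (47 to 57 bp) and 58 bp beyond 300 bp (44 to 107 bp, n = 41). In some long genes, among them SPIRE1, MAGI1, PTPN14 and DOCK10, the listed start and the pause site both lay upstream of the nearest annotated start. A small pause distance in such genes is small from the listed start only.

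The promoters of the long genes were rich in G and C. In the 250 bases before the RefSeq start, with the listed 5′ end within 50 bp of it, the median content was 70.0% in 252 long genes (68.0 to 71.6%), 67.2% in 3664 shorter genes (66.8 to 68.0%) and 58.0% over all 35116 windows of the table. The median number of CpG dinucleotides was 25.5, 23 and 11. The GC box GGGCGG, on either strand, was present in 79.4% of long, 78.2% of shorter and 42.6% of all windows.

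Of the other motifs, ETS alone had intervals that did not overlap between long and shorter promoters. The ETS core CCGGAAG, on either strand, was in 9.92% of long promoters (6.81 to 14.2%), 17.5% of shorter ones (16.4 to 18.8%) and 8.52% of all windows. CCAAT on either strand was in 29.4% of long (24.1 to 35.3%), 36.1% of shorter (34.6 to 37.7%) and 32.0% of all windows. TATAA on either strand was in 5.56% of long (3.34 to 9.11%), 8.32% of shorter (7.47 to 9.26%) and 18.9% of all windows. Motifs can overlap one another in a window, and each was counted on its own. On the gene's strand from 40 to 21 bases before the listed 5′ end, TATAA was found in 2 of 256 long genes (0.781%, 0.214 to 2.80%), ITPR1 and CCSER1, and in 2.77% of shorter ones (2.29 to 3.35%). A match is a stretch of letters and does not show that a factor binds.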

How the data were processed

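The series holds 50 ChIP-seq libraries, per the labels. The 2 files analysed here are the authors' deposited lists for the whole series, gene intervals and 1 bp pause sites, 6481 rows each, on hg38. Their positions are coordinates, deposited with no count or signal, so the depth per sample and behind each site is unknown. The submitters' processing notes name cutadapt 1.14, Bowtie2 2.2.6 and deepTools 3.1.1. The sources used here do not state how pause sites were called.

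Rows were joined by Ensembl identifier. An entry took the symbol of the only RefSeq gene (GRCh38.p14) whose 3′ end lay within 50 bp and that covered at least 50% of it. This named 384 of the 426 long genes, all protein coding. Mutual overlap of at least 80%, where every other gene stayed at or under 50%, named 29 more, and 13 stayed without a symbol. The rules gave 0 different symbols. Promoter windows reach from 250 bases before to 50 after RefSeq starts and are not complete. The nearest start was taken among them and the gene's outermost start.

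Named genes were the 10 longest, those beside the limit, the extremes of pause distance, and list and family members by fixed rules, with further list members added after their values were seen. Some of the genes and 1 of the lists are not reported here. The members and lists were chosen with earlier results of these data known. The sequence, nearest-start and nested-gene comparisons were chosen after seeing the files. Distances and naming were tested on simulated data. No significance test was run, since the lists hold no replicates. Alternatives were other length limits, naming rules, strands and start classes. Analyses used Python 3.11.15 with matplotlib 3.10.9, pandas 2.3.3, SciPy 1.17.1 and NumPy 2.4.6.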

Additional observations from a re-analysis of the deposited data

How the results depend on the processing

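Of 41 alternative settings, 27 left the value inside the interval of the reported one (counts within 1.5 times) and 14 moved it. With a limit of 150, 300 or 500 kb the number of long genes was 700, 186 or 48. At 500 kb the median pause distance was 45.5 bp, and the shares at 20 to 60 bp, 61 to 100 bp, beyond 100 and below 200 bp, and 200 bp or beyond were 72.9, 10.4, 6.25 and 4.17%. With listed starts within 50 bp of the outermost RefSeq start, the share beyond 100 and below 200 bp was 10.7%. The share of long RefSeq genes listed was 36.8% when any overlapping entry counted, 33.6, 23.5 and 14.9% at limits of 150, 300 and 500 kb, and 33.0% without close neighbours. The limit changes which genes are counted. For the other moves the cause was not tested. The alternatives of the nearest RefSeq start and of either naming rule were chosen after seeing the data. No paired analysis was possible because the lists hold no value per library. Depth limits cannot be given, since the lists carry no score. Why a gene is not listed was not tested.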

Other observations

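Long genes often held other genes. RefSeq lncRNA genes lay inside 228 of the 426 long genes (53.5%, 48.8 to 58.2%) and inside 9.78% of shorter genes. Per Mb of listed interval the numbers were closer, at 2.998 and 2.425. CAMTA1 held 7, the highest number in a long gene. Protein-coding genes lay inside 35 long genes (8.22%), with 3 in NF1, and inside 1.35% of shorter genes. Per Mb these stood at 0.289 in long and 0.307 in shorter genes, and nested genes of any kind at 8.19 and 9.91. Nested genes were counted where they covered at most 50% of the entry, on either strand.

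MicroRNA hairpins on the same strand lay inside 62 long genes (14.6%, 11.5 to 18.2%), 71 in all, and inside 4.39% of shorter genes (3.91 to 4.94%). Per Mb the order was opposite, at 0.489 and 0.992. AOPEP, an aminopeptidase gene with a pause distance of 76 bp, held 5 of them. Its cluster MIR23B, MIR27B and MIR24-1 began 358487, 358724 and 359300 bp downstream of the listed start. STIM1, the calcium sensor of the endoplasmic reticulum, held MIR4687 at 899 bp from its start and paused at 58 bp. TLN2, a talin, held MIR190A at 433407 bp and paused at 42 bp. The lists give no level of any microRNA.

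The gap from a long gene to the nearest other listed gene had a median of 82985.5 bp (71455 to 104272 bp), against 30765 bp for shorter genes (29082 to 33133 bp).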
